A study of Mus musculus with 24 samples.

Results

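The comparison described here is tamoxifen induction in the cortex of TREM2-WT mice, measured by bulk RNA sequencing. Its members are the 12 libraries labelled with the genotype TREM2-WT+/+; Cx3cr1CreER/+, taken by genotype and treatment label from 24 libraries in all. The 6 libraries labelled Induced (WT_induced) came from mice given tamoxifen, and the 6 labelled Control (WT_control) from mice given the corn oil vehicle. Every mouse of both groups was on the C57BL/6 background and carried the TREM2-WT construct together with Cx3cr1CreER on 1 allele. The other 12 libraries carried TREM2-R47H in place of TREM2-WT, in the same 2 treatments, and entered the fit to share its estimate of the spread. The series text gives 3 males and 3 females for each group, but no sample label gives a sex, and no age is given. Cx3cr1CreER is a Cre recombinase that becomes active only when tamoxifen binds it, and it is driven by a promoter used by microglia and by other macrophages and monocytes. A tamoxifen-treated group without the construct was not analysed here, so tamoxifen and induced TREM2 cannot be told apart.

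TREM2 is a surface receptor that microglia, the macrophages that live in the brain, use to bind lipids and lipoproteins. It signals through the adaptor Tyrobp and supports phagocytosis, survival and the shift of microglia towards disease-associated states. Interferons are secreted cytokines that act on most brain cells through signal transducers and interferon regulatory factors. They turn on guanylate-binding proteins (GBP) and immunity-related GTPases (IRG), which attack intracellular pathogens, and the genes that load and display peptides on MHC molecules.

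Total counts of the 12 libraries ran from 33742812 to 46904559. Sex was read from Xist against 4 Y-linked genes (Ddx3y, Eif2s3y, Kdm5d and Uty). Libraries with Xist had 29972 to 43597 Xist counts and 1 to 10 Y-linked counts, the others 26 to 85 and 3810 to 6581, and each group held 3 of each kind. In WT_control replicates 1, 2 and 6 were female by these genes, and in WT_induced replicates 1, 4 and 6. A sign of library quality is the part of all counts that falls on the rRNA-like genes Lars2, Yam1 and AY036118, 3 in number. It was 11.5 to 20.1% in WT_control and 14.7 to 22.95% in WT_induced. The means were 15.9 ± 3.18% and 18.3 ± 3.21% (SD, n = 6), a difference that did not pass (two-sided exact permutation p = 0.227).

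No gene passed over all 12 libraries in edgeR. The summed GBP and IRG genes and the summed MHC class I genes were above every control in the 3 female induced libraries and in none of the 3 male ones. Of 19678 tested genes, 0 were called by edgeR's quasi-likelihood test at an adjusted p below 0.05 (0%), and the lowest adjusted p was 0.206. At an unadjusted p below 0.05, 828 genes (4.21%) were higher and 717 (3.64%) lower in induced cortex, and with library totals in place of TMM factors 408 were higher and 1144 lower. Without WT_induced replicate 6, 0 of 19811 genes were called (0%), and 612 (3.09%) were higher and 530 (2.68%) lower at an unadjusted p below 0.05. DESeq2 called 10 genes (0.0508%), namely Pdzd2, Gm6685, Pcdh17, Iigp1, Gm10557, Gbp2, Cckbr, Slamf8, H2-Q7 and Scg2, and limma-voom called 0. The median log2 fold change over all tested genes was 0.0015.

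Trem2 itself (chromosome 17, 48346401 to 48354147, mm10) ran in WT_control from 5.93 to 6.96 CPM with a mean of 6.40 ± 0.367 (SD, n = 6). CPM, a count relative to its library total, was computed with the total scaled by TMM, a factor that lines up the bulk of the genes between libraries. In WT_induced replicates 1 to 6 it was 5.41, 5.81, 6.85, 6.53, 5.74 and 9.32 CPM. Replicate 6 was above every control library, and the other 5 lay within or below the control range. The exact permutation test of the CPM gave p = 0.866, where the smallest p that 6 against 6 can give is 0.00216, and without replicate 6 the difference was -0.335 CPM (exact permutation p = 0.281). The labels do not say which species or sequence the construct has, so whether its reads count towards mouse Trem2 was not tested. In bulk tissue, fewer cells of a type and less RNA per cell cannot be told apart, for Trem2 and for every gene below.

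The GBP and IRG genes separated the induced libraries most clearly. Summed over the 15 tested members, their level was 30.5 to 41.9 CPM in WT_control (median 36.2). In WT_induced replicates 1 to 6 it was 140.9, 33.9, 38.1, 65.5, 28.8 and 317.8 CPM. Replicates 1, 4 and 6 were above every control library, by 3.95, 1.83 and 8.90 times the control mean, while replicates 2, 3 and 5 lay within or just below the control range. Of the 15 members, 14, 14 and 15 were above all 6 controls in replicates 1, 4 and 6, against 0, 2 and 0 in replicates 2, 3 and 5. The share of all genes above all 6 controls was not computed for single libraries. Other lists varied widely in replicate 1, from 0 of 23 immediate early genes to 9 of 9 thalamus genes. Gbp2, a large interferon-induced GTPase, showed the pattern in a single gene, at 1.76 to 2.56 CPM in the controls and 14.4, 2.28, 2.10, 5.44, 1.72 and 43.1 CPM in WT_induced replicates 1 to 6. The 12 R47H libraries held 1.65 to 2.88 CPM of Gbp2.

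MHC class I genes, which load and present peptides to CD8 T cells, followed the same order of libraries. Their summed level over 19 members was 195.5 to 224 CPM in WT_control. It was 318, 198, 219, 306, 184 and 929 CPM in WT_induced replicates 1 to 6, so the same 3 libraries were above all controls. H2-K1, a classical class I heavy chain, was at 16.0 to 22.2 CPM in the controls and at 38.6, 17.8, 21.0, 39.3, 15.3 and 163 CPM in the induced replicates 1 to 6. B2m, the light chain shared by class I molecules, was at 47.2 to 56.5 CPM in the controls and at 80.8, 49.5, 54.8, 77.8, 40.1 and 263 CPM in the induced. Type I interferon response genes, 34 of them, summed to 165 to 196 CPM in WT_control and to 215, 166, 193, 226, 166 and 516 CPM in WT_induced.

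MHC class II genes, used by antigen-presenting cells to show peptides to CD4 T cells, differed from those lists. Summed over 14 members they were at 104 to 112 CPM in WT_control and at 115, 105, 104, 121, 103 and 496 CPM in WT_induced. Replicates 1 and 4 were 1.07 and 1.13 times the control mean and replicate 6 was 4.62 times it. Cd74, the class II chaperone, was at 2.67 to 4.80 CPM in the controls and at 7.53, 5.97, 2.13, 9.90, 4.04 and 152 CPM in the induced, so 1 male library was also above the controls for Cd74.

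**Figure D1:**
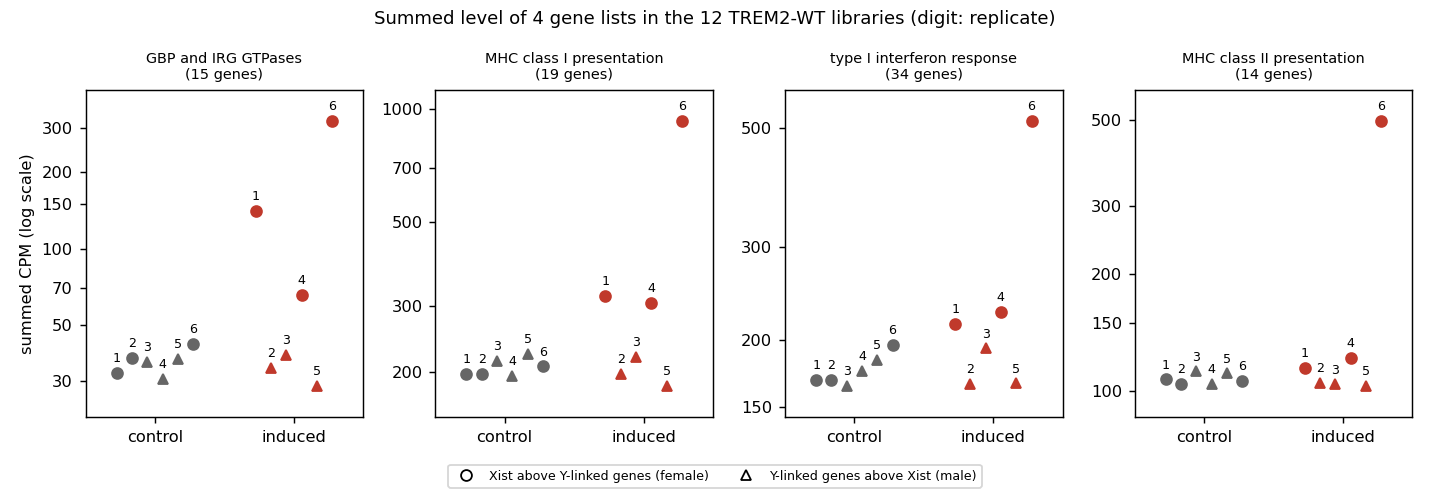
Summed CPM (log axis) of the GBP and IRG, MHC class I, type I interferon response and MHC class II lists in each of the 12 TREM2-WT libraries, with circles for libraries read as female, triangles for male and digits for replicates. Induced replicates 1, 4 and 6 lie above all 6 controls in each panel; for MHC class II, replicates 1 and 4 do so by little, at 115 and 121 CPM against a highest control of 112.

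Over all 12 libraries these lists were higher on the median, with 0 members called by edgeR. The median log2 fold change was 1.74 for GBP and IRG genes (14 of 15 higher at an unadjusted p below 0.05), 1.01 for MHC class I (18 of 19), 0.71 for the type I interferon response (21 of 34) and 0.51 for MHC class II (6 of 14). Without WT_induced replicate 6 the medians were 0.90, 0.34, 0.18 and 0.03, with 13, 8, 2 and 2 members higher at that threshold. These counts stand beside 4.21% and 3.09% of all genes.

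Most promoters of the GBP and IRG list, and fewer of the other 3 lists, held the element that interferon-activated factors bind. This interferon-stimulated response element was searched as GAAA, any 2 bases and GAAA again (on the other strand TTTC, any 2 bases and TTTC), overlaps allowed, in RefSeq promoters of GRCm38.p6 that run from 250 bases before to 50 after each gene's start. It was present for 10 of 11 GBP and IRG genes found in that table, 13 of 26 type I interferon response genes, 5 of 17 MHC class I genes and 1 of 10 MHC class II genes, and for 3.99% of all 27025 genes. A match is a description of the letters only. The 5 windows printed show the element, in capitals, with 10 bases on each side, in members of the first 3 lists; Gbp7, B2m, Ifit3 and Ifit1 encode a GBP, the class I light chain and a pair of antiviral tetratricopeptide proteins, and Igtp is an IRG.
Gbp7, chr3:142530273-142530302, plus strand: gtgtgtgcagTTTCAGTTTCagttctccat
Igtp, chr11:58199512-58199541, plus strand: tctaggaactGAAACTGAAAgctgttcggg
B2m, chr2:122147538-122147567, plus strand: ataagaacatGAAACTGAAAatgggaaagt
Ifit3, chr19:34583397-34583426, plus strand: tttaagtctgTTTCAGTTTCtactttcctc
Ifit1, chr19:34640794-34640823, plus strand: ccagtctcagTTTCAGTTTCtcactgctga

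A fit was run with 8 groups of genotype, treatment and sex. In it the genes of the 4 interferon and MHC lists had medians above 0 in females and near 0 in males. The split by sex was chosen after seeing that the 3 libraries high in these genes were the 3 with Xist, so its p-values are not independent of that observation. In females 381 genes (1.94%) rose and 509 (2.59%) fell at an edgeR adjusted p below 0.05, and in males 0 were called (0%), with 857 at an unadjusted p below 0.05 and 5 called by DESeq2. The difference of the sexes was called for 92 genes (0.468%) that were higher in females and 237 (1.2%) that were lower. With library totals the median of all genes in females shifted by -0.10 on the log2 scale, and 228 genes rose and 1912 fell, with 50 higher and 873 lower in the difference; 14 GBP and IRG genes and 15 MHC class I genes still rose. Without WT_induced replicate 6 the female induced group held only replicates 1 and 4, both among the libraries seen to be high. The spread behind its SEs and p-values was shared with the other groups of the fit. In that fit 142 genes (0.717%) rose and 178 (0.898%) fell in females, of which 108 and 169 were also called with replicate 6 included. The difference was then called for 41 (0.207%) and 69 (0.348%) genes. The female total of 890 calls was 147 without WT_control replicate 6. The 329 calls of the difference were 215, 88, 141, 58 and 58 without WT_control replicates 1, 3, 4, 5 and 6, and 51 and 110 without WT_induced replicates 5 and 6.

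The rRNA-like share moved with the female contrast. It was 13.3, 20.1 and 11.5% in the female controls and 19.8, 20.3 and 22.95% in the female induced libraries, a mean difference of 6.04 points (exact permutation p = 0.2, where 3 against 3 cannot go below 0.1). In males it was 15.5 ± 0.696% induced and 16.9 ± 1.497% control (SD, n = 3). Taking the share as a covariate left 0 genes called by edgeR in females, in males or in the difference. In that fit 265 of the 381 rises and 395 of the 509 falls kept an unadjusted p below 0.05, and all 890 kept their sign. WT_control replicate 2 had a share of 20.1%, close to induced replicates 1 and 4, and a GBP and IRG sum of 37.04 CPM, within the range of the other controls. A single library cannot separate the share from the treatment. In the other genotype, R47H_control replicates 1, 2, 5 and 6 had shares of 24.4, 20.6, 20.8 and 21.6%. The GBP and IRG sums of the 12 R47H libraries ran from 24.5 to 33.9 CPM. The part of the share in the TREM2-WT levels was not tested.

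**Figure D2:**
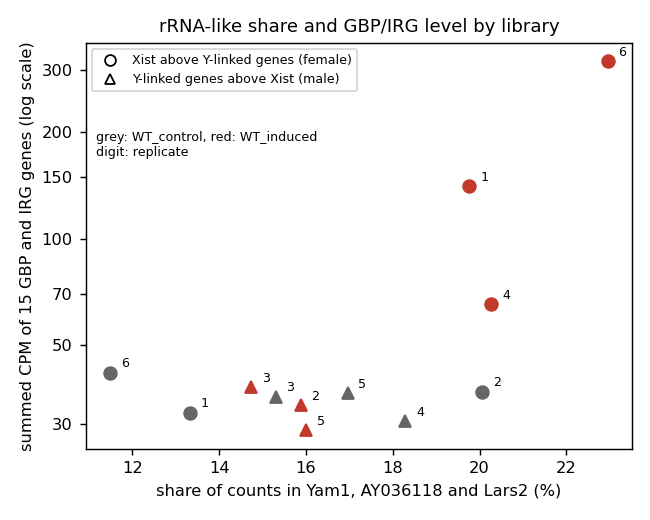
Share of counts in 3 rRNA-like genes (x axis, %) against the summed CPM of 15 GBP and IRG genes (y axis, log scale) in the 12 TREM2-WT libraries, grey for control and red for induced, circles for female and triangles for male. WT_control replicate 2 has a share of 20.1% and a level of 37.04 CPM, and induced replicates 1 and 4 have shares of 19.8 and 20.3% and levels of 140.9 and 65.5 CPM. The part of the share in these levels was not tested.

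Among GBP and IRG genes 14 of 15 tested members rose in females and 0 fell, with a median log2 fold change of 2.44. The median was 1.62 with 14 rises without WT_induced replicate 6, and -0.01 with 0 calls in males. Of all genes 1.94% rose in females, and 0.717% without that library. Gbp2 rose by a log2 value of 3.16 (SE 0.49, edgeR adjusted p = 0.00258), from 2.37 ± 0.258 CPM in 3 female controls to 21.0 ± 19.7 CPM in 3 female induced libraries (SD). In males its log2 fold change was -0.07 (SE 0.56), and the difference of the sexes was 3.23 (SE 0.74, edgeR adjusted p = 0.0382). Iigp1, an IRG that damages the vacuoles of intracellular parasites, rose by 3.71 (SE 0.56), and Igtp by 2.44 (SE 0.48). Fitted with the rRNA-like covariate, the list's median in females was 2.14 and 14 members had an unadjusted p below 0.05, a threshold that 4.55% of all genes passed upwards. At that threshold the same fit left 18 of 19 MHC class I, 9 of 34 type I interferon response and 0 of 14 MHC class II genes higher.

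Among MHC class I genes 17 of 19 rose in females (median 1.54) and 12 of 19 without WT_induced replicate 6 (median 0.72), against 0 in males (median -0.01). The shares of all genes that rose in females were 1.94% with that library and 0.717% without it. H2-K1 rose by 2.14 (SE 0.40), from 18.4 ± 2.10 to 80.4 ± 71.7 CPM (SD, n = 3), and by 1.08 (SE 0.14) without replicate 6. Tap1, a subunit of the peptide transporter, rose by 2.15 (SE 0.40), and Psmb8, a subunit of the immunoproteasome that cuts the peptides, by 2.21 (SE 0.47). The difference of the sexes was called for 4 members in this list, Tap1 among them at 2.505 (SE 0.59), and for 6 in the GBP and IRG list. It was called for 0 of 34 type I interferon response genes and 0 of 14 MHC class II genes, beside 0.468% of all genes upwards. H2-Q7 has near-identical neighbours, so its values are uncertain. Cd274, which encodes the checkpoint ligand PD-L1 and was chosen after its values were seen, rose by 1.78 (SE 0.31).

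Upstream of these effectors, Irf1, an interferon-induced transcription factor, rose in females by 1.31 (SE 0.27) and by 0.66 (SE 0.14) without replicate 6. Of the type I interferon response list 0 of 34 were called in males, where members ran from -0.975 to 1.088 (median -0.02). In females 20 rose (median 1.15), but only 2 did without replicate 6 (median 0.47), beside 1.94% and 0.717% of all genes. Ifit3 rose by 1.21 (SE 0.28) and Oasl2, of the oligoadenylate synthetase family, by 2.11 (SE 0.46). Without replicate 6 they were at 0.62 (SE 0.17) and 1.199 (SE 0.33), which did not pass. Exons of Gbp7 overlap those of other genes over 11.3% of their length; with a kit that does not mark strand such reads cannot be assigned.

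MHC class II again rested on replicate 6: 4 of 14 members rose in females (median 0.81) and 1 without that library (median 0.07), beside 1.94% and 0.717% of all genes. Cd74 rose by 3.94 (SE 0.86), and was at 1.24 (SE 0.34, edgeR adjusted p = 0.0762) without replicate 6. H2-Ab1, a class II beta chain, rose by 3.74 (SE 0.85) and was at 0.998 (SE 0.27, edgeR adjusted p = 0.055) without it.

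**Figure D3:**
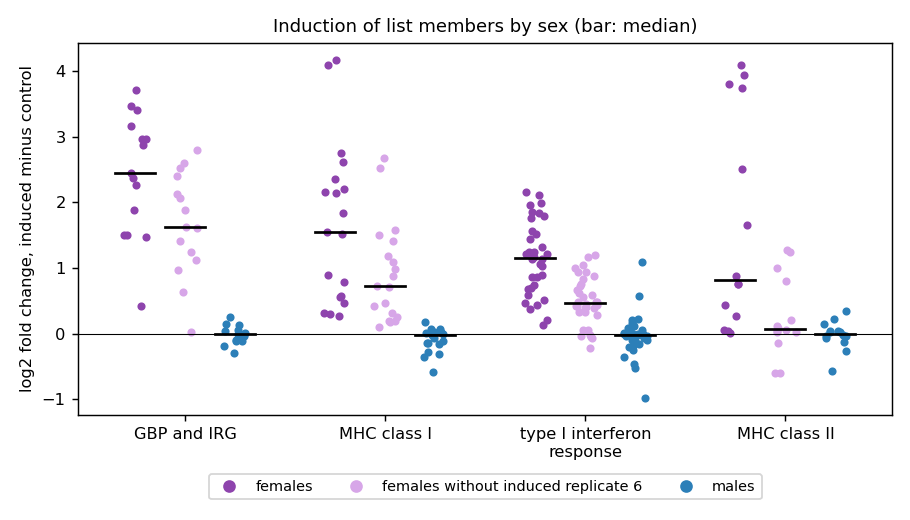
Log2 fold change of induced minus control (y axis) for each tested member of 4 lists, in females, in females without WT_induced replicate 6 and in males, with the median as a bar. Female medians run from 0.81 to 2.44 and fall to between 0.07 and 1.62 without replicate 6, while male medians lie between -0.02 and 0.00.

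In induced R47H females, which share no library with the WT groups, 0 members of the same 4 lists were higher at an unadjusted p below 0.05. The median log2 fold change there was -0.35 for GBP and IRG genes and -0.11 for MHC class I. It was -0.22 for the type I interferon response and 0.05 for MHC class II. The WT minus R47H difference of the female inductions used the WT female induced libraries already seen to be high in these lists. Its p-values are therefore not independent of that observation. This difference was called for 10 of the 15 GBP and IRG genes and 2 of the 19 MHC class I genes. It was called for 0 of 34 type I interferon response and 0 of 14 MHC class II genes, beside 0.346% of all genes upwards. Without WT_induced replicate 6 it was called for 7, 5, 1 and 2 members of these lists in that order, beside 0.384% of all genes. Gbp2 differed by 3.51 (SE 0.73, edgeR adjusted p = 0.0412), and by 2.41 (SE 0.37) without replicate 6. The rRNA-like share was 17.1 to 20.6% in the R47H female controls and 16.1 to 19.5% in the R47H female induced libraries. The female difference was not fitted with that share as a covariate. Over both sexes 0 genes were called by edgeR (0%) in the difference of the inductions, with 1562 at an unadjusted p below 0.05.

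WT_induced replicate 6 had the highest level of many immune genes. In it 209 of the tested genes were at 2 times or more the next highest of the 12 TREM2-WT libraries, and 47 of them belong to the 4 interferon and MHC lists. Of the 209 genes, 111 and 107 were above all 6 controls in replicates 1 and 4, against 18, 32 and 15 in replicates 2, 3 and 5. The share of all tested genes above all 6 controls was not computed for single libraries, so these counts have no base beside them. The 209 genes were also taken for their level in replicate 6. H2-Ab1 was 17.5 times the next highest library, Ccr2, a chemokine receptor of inflammatory monocytes, 16.7 times and Cybb, the phagocyte oxidase subunit, 7.87 times. Lyz2, the lysozyme of myeloid cells, was at 3.01 to 6.43 CPM in 11 libraries and at 42.0 CPM in replicate 6.

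**Figure D4:**
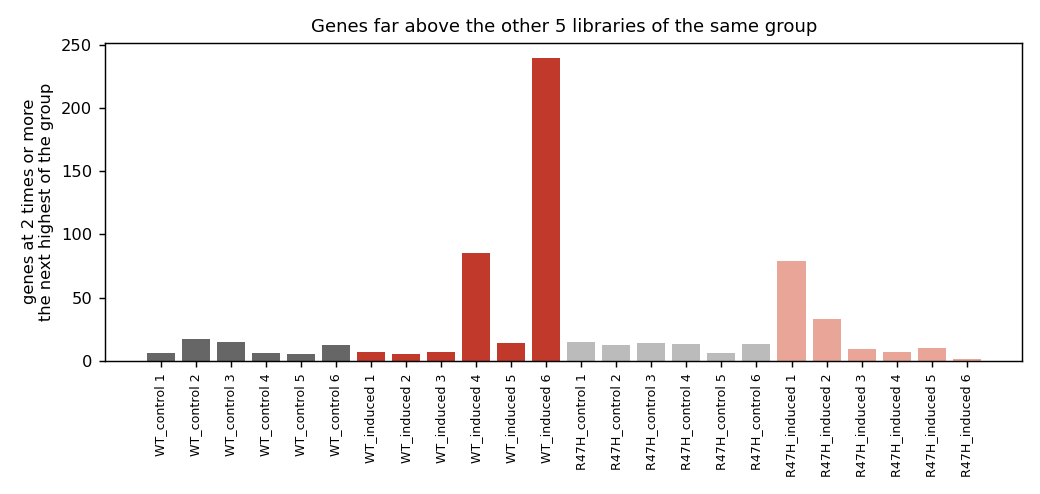
Number of tested genes (bars) in each of the 24 libraries at 2 times or more the next highest library of the same group of 6. WT_induced replicate 6 has 240 such genes, WT_induced replicate 4 has 85, R47H_induced replicate 1 has 79 and the lowest library has 1.

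Markers of T and NK cells were also higher in that library. Of 21 listed markers 7 passed the filter on low counts, and their sum was 16.7 to 19.4 CPM in WT_control, 16.3 to 18.2 CPM in WT_induced replicates 1 to 5 and 28.6 CPM in replicate 6. Markers below the filter had low counts in the other libraries. Cd3e, a chain of the T cell receptor complex, had 59 counts in replicate 6 and 10 in the other 11 libraries together. Cd8a, the co-receptor of cytotoxic T cells, had 68 and 12, and Cd5, also listed, had 49 and 62. Nkg7, a granule protein of cytotoxic cells, had 76 and 16. The chemokines that draw such cells were higher still, with 979 counts of Cxcl9 in replicate 6 against 35 in the other 11 libraries, 603 against 96 of Cxcl10 and 229 against 40 of Ccl5. WT_induced replicate 4 had 20 counts of Cxcl9, against 0 to 3 in the controls, and 10 of Cxcl10. WT_induced replicate 1 had 32 counts of Cxcl10, against 1 to 15 in the controls, and 2 of Cxcl9. Ccl5 had 2 to 5 counts in each of the other 11 libraries. Ifng, the type II interferon made by T and NK cells, had 6 counts in replicate 6 and 0 in each of the other 23 libraries; 25.9% of its exon length overlaps another gene. The type I interferon genes Ifnb1 and Ifna4 had 0 counts in every TREM2-WT library. These low genes were chosen after their values were seen.

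Monocyte and neutrophil markers, 3 of 10 tested, summed to 4.40 to 7.13 CPM in WT_control, 3.47 to 6.77 CPM in WT_induced replicates 1 to 5 and 50.7 CPM in replicate 6. In replicate 6 Lyz2 was at 42.0 CPM and Ccr2 at 8.64 CPM, and 2 of the 3 tested markers were above all controls. Of the markers below the filter, Plac8 had 173 and Ly6c2 115 counts in replicate 6. S100a8 had 2 there, Chil3 4 and Camp 4, and the neutrophil genes Ly6g and Retnlg had 0. Replicates 1 and 4, with raised GBP, IRG and class I genes, had sums over the tested markers within or below the control ranges. These were 17.4 and 16.3 CPM for T and NK cells and 6.77 and 6.58 CPM for monocytes and neutrophils. Below the filter, Plac8 had 11 and 11 raw counts there against 2 to 8 in the controls, and S100a8 14 and 10 against 0 to 9. Ly6c2, Retnlg, Chil3, Ly6g and Camp were not above all controls in both. The part of infiltrating cells in the values of replicates 1, 4 and 6 was not tested.

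Microglial genes did not pass over the 12 libraries. The defining markers of microglia were present in every one, with P2ry12, a purine receptor of resting microglia, at 26.8 to 32.3 CPM and Csf1r, the receptor that keeps them alive, at 72.1 to 103 CPM. Of the homeostatic list 0 of 16 tested members were at an unadjusted p below 0.05 (median -0.01), and without replicate 6 there were 3, all lower (median -0.06, beside 2.68% of all genes), among them Cx3cr1, the fractalkine receptor, at -0.13 (SE 0.05, edgeR adjusted p = 0.783). One allele of Cx3cr1 carries the CreER insertion in both groups. The summed homeostatic level was 385 to 413 CPM in WT_control, 358 to 400 CPM in WT_induced replicates 1 to 5 and 505 CPM in replicate 6. Tyrobp, the TREM2 adaptor, was at 4.63 to 5.95 CPM in the controls and at 5.16, 5.53, 6.12, 5.57, 4.73 and 12.1 CPM in the induced. Aif1, the microglial marker IBA1, was at 6.34 CPM in replicate 6 and at 2.04 to 3.11 CPM in the other 11 libraries.

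Of the disease-associated microglia list, 5 of 20 tested members were higher at an unadjusted p below 0.05 (median 0.12, beside 4.21% of all genes). In females 4 rose (median 0.25), and 1, Apoe, without replicate 6, beside 1.94% and 0.717% of all genes. Apoe, the main lipoprotein of the brain, was at 0.20 (SE 0.08) in females, and it rose by 0.30 (SE 0.07, edgeR adjusted p = 0.0184) without replicate 6. Itgax, the integrin CD11c of activated microglia and dendritic cells, was at 2.96 CPM in replicate 6 and at 0.027 to 0.383 CPM in the other 11 libraries. Of the 13 tested TREM2 signalling partners 1 was higher at an unadjusted p below 0.05, near the 4.21% of all genes for so short a list. In females 7 were higher at that threshold and 1 rose, and without replicate 6 these counts were 1 and 0. Of all genes 3803 of 19678 passed that threshold in females in either direction, and 2934 of 19811 without replicate 6. The shares of all genes that rose were 1.94% and 0.717%.

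Some complement, astrocyte and vessel genes also rose in females, and a few fell. Of 19 complement genes 6 rose and 2 fell, beside 1.94% and 2.59% of all genes, and without replicate 6 only 1 rose and 2 fell, beside 0.717% and 0.898%. Fitted with the rRNA-like covariate, 2 were higher at an unadjusted p below 0.05, beside 4.55% of all genes. C4b, a complement component made by astrocytes and other glia, was at 13.7 to 17.9 CPM in WT_control and at 21.1, 14.9, 16.0, 26.0, 16.8 and 84.8 CPM in WT_induced. It rose in females by 1.48 (SE 0.35), and by 0.57 (SE 0.11) without replicate 6. C1qa, a chain of the complement initiator C1q, rose in females by 0.86 (SE 0.21) and was at 0.46 (SE 0.14, edgeR adjusted p = 0.0927) without replicate 6. The complement genes that fell were C4a, by 0.86 (SE 0.16), and Cfp, which encodes properdin, a stabiliser of the alternative pathway convertase, by 0.60 (SE 0.12). C4a and C4b are near-identical copies, so how their reads were divided is uncertain. Of the reactive astrocyte list 5 of 20 rose in females, such as Vim, an intermediate filament, at 0.42 (SE 0.09), and 0 did without replicate 6 in edgeR, where 10 had an unadjusted p below 0.05. The shares of all genes that rose were again 1.94% and 0.717%. Without replicate 6, 2934 of all 19811 genes had an unadjusted p below 0.05 in females, in either direction. Gfap, the astrocyte filament, was at 89.0 to 117 CPM in the controls, 96.2 to 127 CPM in WT_induced replicates 1 to 5 and 267 CPM in replicate 6.

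Of 14 endothelial genes 5 rose in females (median 0.29) and 4 without replicate 6 (median 0.31), beside 1.94% and 0.717% of all genes. In males 13 of the 14 had a negative log2 fold change (median -0.13), with 0 called. Fitted with the rRNA-like covariate, the female median was 0.16. In that fit 6 members were higher at an unadjusted p below 0.05, beside 4.55% of all genes. Ly6a, an interferon-responsive surface protein of brain endothelium, was at 7.11 to 8.12 CPM in the controls and at 17.0, 8.20, 9.98, 9.59, 5.93 and 17.6 CPM in the induced. Male replicates 2 and 3 were also above all controls. It rose in females by 0.997 (SE 0.18). Vcam1, an adhesion molecule of activated endothelium and of astrocytes, rose by 0.53 (SE 0.08) in females, against -0.01 (SE 0.08) in males; the difference of the sexes was 0.55 (SE 0.12, edgeR adjusted p = 0.0208). Vcam1 was picked with its values known.

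The 509 genes that fell in females fell by little, with a median log2 value of -0.32, and their median in males was 0.05. Rps6kb2, a ribosomal protein S6 kinase, had the lowest p in females, at 18.0, 15.7 and 20.8 CPM in the female controls and 11.6, 12.5 and 10.01 CPM in the female induced libraries. It fell by 0.68 (SE 0.09, edgeR adjusted p = 0.000799) on the log2 scale, and its log2 fold change in males was 0.03 (SE 0.09). Mettl17, a mitochondrial ribosome assembly factor, fell by 0.63 (SE 0.09), and Safb2, a nuclear scaffold protein, by 0.45 (SE 0.07). Fitted with the rRNA-like covariate, Rps6kb2 was at -0.49 (SE 0.10, edgeR adjusted p = 0.128). Its level in the 6 male libraries, 13.8 to 15.5 CPM, lay between the female groups, and 23.7% of its exon length overlaps another gene. The choice of these 3 genes followed from their values.

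The genes with the lowest p over both sexes showed small differences, and 0 passed in edgeR. All 6 induced libraries were above all 6 controls in 24 genes (0.122%) and below them in 22 (0.112%); these are small shares of all genes, and the genes described next are single genes taken by their p, not a group shown to differ. Pdzd2, a protein with many PDZ domains, was at 91.1 to 102 CPM in the controls (median 94.2) and at 107, 105, 109, 108, 116 and 109 CPM in the induced. The means were 95.2 ± 3.83 and 109 ± 3.92 CPM (SD, n = 6), with a log2 fold change of 0.20 (SE 0.04, edgeR adjusted p = 0.206). It was 0.15 (SE 0.05) in females and 0.24 (SE 0.05) in males.

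Pcdh17, a protocadherin of synapses, was at 89.9 ± 2.83 CPM in the controls and 98.2 ± 2.52 in the induced (SD, n = 6), with no overlap and a log2 value of 0.13 (SE 0.03). Scg2, the secretogranin II of neuronal dense-core granules, was at 190 to 213 CPM in the controls and at 215 to 241 CPM in the induced, a log2 value of 0.17 (SE 0.04). Cckbr, the brain cholecystokinin receptor, was at 43.0 to 46.5 CPM in the controls and at 37.0 to 42.1 CPM in the induced, a log2 value of -0.17 (SE 0.04). None of the 4 passed in edgeR, while DESeq2 called Pdzd2, Pcdh17, Scg2 and Cckbr.

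Gm6685, a predicted gene of low count, was at 0.144 to 0.475 CPM in the controls and at 0.638 to 1.30 CPM in the induced, without overlap. Its log2 fold change was 1.26 (SE 0.25), and 1.35 (SE 0.25, edgeR adjusted p = 0.181) without replicate 6. P2ry1, a purine receptor of neurons and astrocytes, was at 4.13 to 5.22 CPM and 5.16 to 6.20 CPM, overlapping slightly. B3galnt2, an enzyme that glycosylates dystroglycan, was at 18.4 to 21.4 CPM and 17.1 to 18.6 CPM. Cdh4, a cadherin of neurons, and Kpna2, a nuclear import receptor, were among the 10 lowest p without replicate 6, at 0.27 (SE 0.06) and -0.58 (SE 0.13). Of the 10 genes with the lowest p, 5 were the same with and without that library.

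**Figure D5:**
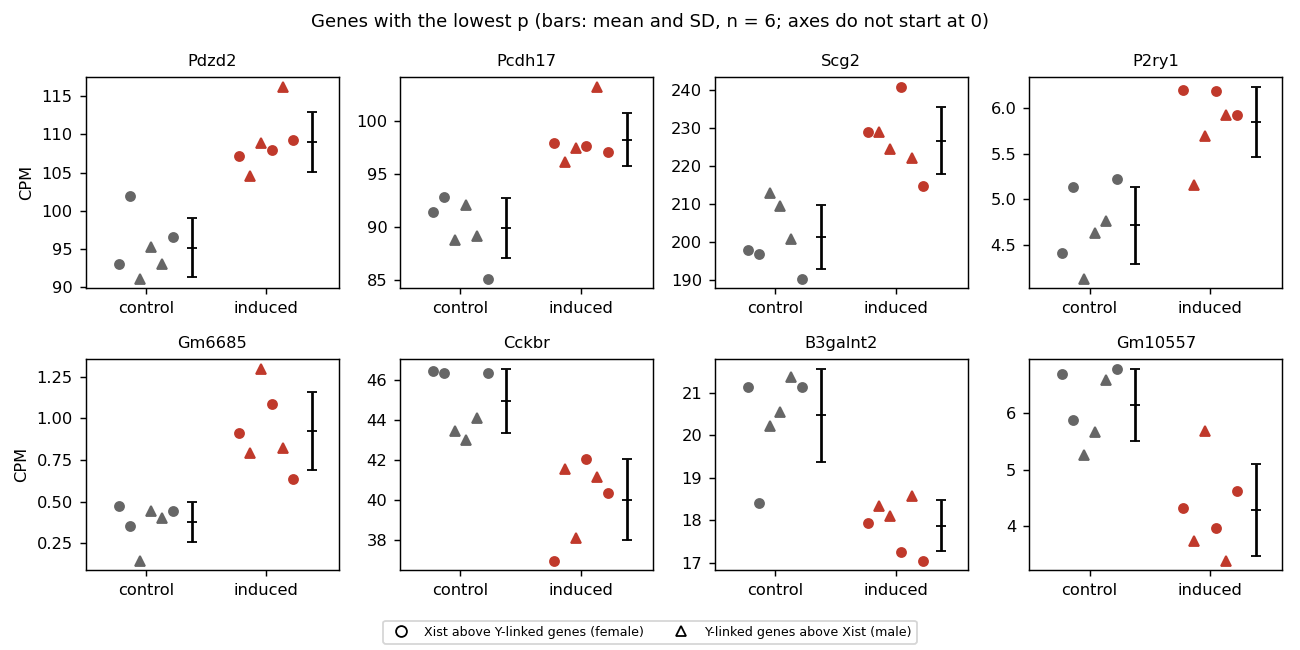
CPM (y axes, not from 0) of 8 genes with the lowest p in the 6 control and 6 induced TREM2-WT libraries, circles for female and triangles for male, with the mean and SD of each group as a bar. The induced libraries lie above all controls for Pdzd2, Pcdh17, Scg2 and Gm6685 and below all for Cckbr, while P2ry1, B3galnt2 and Gm10557 overlap.

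Genes that tamoxifen itself could act on, through oestrogen receptors and their coactivators, gave 1 of 12 tested members higher at an unadjusted p below 0.05 (median 0.01), near the 4.21% of all genes for so short a list. Immediate early genes, switched on by firing neurons, gave 0 of 23 members at that threshold in edgeR (median -0.10).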

How the data were processed

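Cortex RNA was extracted with Trizol and sequenced after poly-A selection, 1 library per mouse, per the labels' protocols. The deposited values are whole-number read counts per gene, which the authors did not normalize; the tools, per the submitters' processing notes, were STAR (2.5.2b) for mm10 and featureCounts (1.5.1). The featureCounts options and annotation were not given in the sources used here. The TruSeq v2 kit does not mark strand. Gene coordinates are those of the deposited table.

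Counts were filtered with filterByExpr, scaled by TMM and tested in 1 robust quasi-likelihood fit over 24 libraries (edgeR 4.0.16 under R 4.3.3). Adjustment followed Benjamini-Hochberg over all tested genes, with calls at 0.05. SE is that of the fit. Within the TREM2-WT groups the 30 library pairs differed by more than sampling noise (chi-square per degree of freedom 4.68 to 67.2). DESeq2 1.42.0, limma 3.58.1, other scalings and filters, covariates for sex and the rRNA-like share, and each library left out were alternatives. The contrasts within each sex were added after seeing the data. Exact permutation tests used scipy 1.17.1. The fit was checked on simulated data. Exon overlap was taken from GENCODE vM21, which held 98% of the gene IDs.

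The members, the 35 gene lists and the tests were chosen with earlier results of these data known. Genes named are Trem2, the 10 lowest p with and without WT_induced replicate 6, the 2 lowest p and the 2 highest levels of each list, a panel of 12 glial genes and the 10 genes with the largest ratio of replicate 6 to the next library. Some genes are not reported here. Other members are examples chosen after their values were seen.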

Additional observations from a re-analysis of the deposited data

Results flagged for a closer look

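In WT_induced, replicate 6 was far from the other 5 libraries by Dixon's test. Chance flags about 1 in 20 groups, but that rate does not apply here, since this library was known to be high in immune genes and some genes were named for that, so the values are a description. This held for the summed CPM of the lists for interferon ligands and signalling (460.6), type I interferon response (515.6), MHC class I (928.9), MHC class II (496.3), T and NK cell (28.6), monocyte and neutrophil (50.7), complement (385), homeostatic microglia (505) and reactive astrocyte (437). It also held for interferon and MHC genes by CPM: Gbp2 (43.1), Iigp1 (30.6), Igtp (38.9), Irgm1 (38.5), Irf1 (17.1), Ifi44 (4.33), Ifit1 (13.02), Ifit3 (20.95), Oasl2 (18.3), B2m (263), H2-K1 (163), H2-D1 (176), H2-Q7 (19.1), Tap1 (21.8), Psmb8 (16.6), Cd74 (152), H2-Ab1 (45.3) and Ctss (98.6). Myeloid and glial genes flagged in the same library were Trem2 (9.32), Tyrobp (12.1), Aif1 (6.34), Csf1r (103), Tmem119 (24.1), Itgax (2.96), Ccr2 (8.64), Lyz2 (42.0), Cybb (11.2), Slamf8 (2.39), C1qa (39.7), C4b (84.8) and Gfap (267).

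Other libraries stood apart in single measures. WT_control replicate 1 was high in meningeal fibroblast genes (183 CPM), WT_control replicate 2 in red blood cell genes (24.7 CPM) and WT_induced replicate 3 in striatal genes (1788 CPM). Gm6685 was low in WT_control replicate 3 (0.144 CPM), Irgm1 low in WT_control replicate 4 (5.84 CPM) and Pcdh17 high in WT_induced replicate 5 (103 CPM).

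The difference of the female and male inductions passed in edgeR for the genes that follow, but it is no independent support for a difference by sex: the split was chosen after seeing which libraries were high, and Cd274, Vcam1, Rps6kb2, Mettl17 and Safb2 were picked with their values known. It passed for Iigp1 (3.83 on the log2 scale), Gbp2 (3.23), Tap1 (2.505), Cd274 (2.06), Gbp7 (1.58) and Vcam1 (0.55), all higher in females. It was lower in females for Mettl17 (-0.735), Cfp (-0.67), Rps6kb2 (-0.71) and Safb2 (-0.59). Fitted with the rRNA-like covariate, edgeR called 0 differences.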

How the results depend on the processing

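No paired analysis was possible because the labels carry no replicate numbers and the columns name no pairs. Over both sexes 0 genes were called under each alternative run, except 10 by DESeq2; over the libraries left out in turn the count ran from 0 to 1 (the 1 without WT_control replicate 2). In females the 890 calls became 439 on the 12 TREM2-WT libraries, 2140 with library totals and 0 with the rRNA-like covariate, and 147 to 929 with a library left out. In males the 0 calls became 4 on the 12 libraries and 5 by DESeq2, and 0 to 2 with a library left out (2 without WT_induced replicate 3). The 329 sex differences became 112 on the 12 libraries, 530 by DESeq2, 923 with library totals and 0 with the rRNA-like covariate, and 51 to 411 with a library left out. Without WT_induced replicate 6 the sign turned for the Trem2 CPM difference (-0.335) and for 5 log2 fold changes, which over all left-out libraries ran from -0.077 to 0.098 for Trem2, -0.026 to 0.380 for Aif1, -0.058 to 0.057 for Csf1r, -0.133 to 0.401 for Ctss and -0.076 to 1.359 for Lyz2; Ctss was also at -0.020 in limma-voom with sample weights. The cause was not tested. Of 1289 values of named genes under alternatives 1273 kept their side of the threshold and their direction (6 turned sign within 1 SE), 10 passed in DESeq2 only, and 5 of 770 list medians moved by more than 1 SD. Genes of few counts, such as Ifng and Cd3e, are limited by depth.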
